A study of Rattus norvegicus with 8 samples.

Results

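The records described here are 9 RefSeq transcripts of striated muscle genes, measured in the stellate ganglia of Wistar and spontaneously hypertensive rats (SHR). They are Ckm (NM_012530), Mb (NM_021588), Acta1 (NM_019212), Actc1 (NM_019183), Tnnt2 (NM_012676), Tnni3 (NM_017144), Myh6 (NM_017239), Myh7 (NM_017240) and Pln (NM_022707). They were chosen by identifier, as genes of heart and skeletal muscle that are not part of the usual repertoire of a sympathetic ganglion, and are 9 of the 18314 records quantified in each rat. The values that follow compare 4 Wistar rats with 4 SHR, all 16 weeks old, with 1 library per rat from the right stellate ganglion. According to the study's methods the rats were male and the ganglia were freed of their sheath and cleaned before extraction. Wistar is an outbred stock, whereas the SHR is an inbred line with hereditary hypertension that was bred from Wistar Kyoto animals, so the strains differ in more than blood pressure.

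Striated muscle contracts when myosin motors pull on actin filaments, and calcium bound to the troponin complex opens those filaments to the motors. Heart and skeletal muscle use partly different members of the same families, with Myh6, Myh7, Actc1, Tnnt2 and Tnni3 typical of the heart and Acta1 of skeletal muscle. Ckm and Mb serve the supply of energy and oxygen in both, and Pln regulates the return of calcium to the stores of the cardiac cell. The stellate ganglion lies in the upper chest close to the heart, vessels, muscle and fat, and its own neurons send noradrenergic fibres to the heart.

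Of these 9 genes only Acta1, the alpha actin of skeletal muscle, was abundant. Tnnt2 and Ckm followed at a low level, and the other 6 genes had a median below 1 TPM, a length-corrected share of all transcripts. The genes did not have their highest value in the same rat, and none of the 6 that could be tested differed between the strains past the threshold. Outside the 9 genes, a wider list of striated muscle genes held 3 records that were lower in SHR, of which Tnni1 differed most. The others were Fabp3, whose call was narrow, and 1 of 2 records of Ryr2, which was not called when both were summed.

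The promoters of both sarcomeric actins, which encode closely similar proteins, are given first. Acta1 and Actc1 stood far apart in estimated level, and whether their promoters bear on this was not tested. Each sequence is taken from RefSeq (build GRCr8), is printed from 5′ to 3′ on the minus strand, and runs from 250 bases before the annotated start of the transcript to 30 bases after it. Acta1 lies at chr19:68784165-68784444 and Actc1 at chr3:121271798-121272077. Capitals mark a CArG box, the element bound by serum response factor, and in Acta1 also CATTCC, the core bound by TEAD factors, and TATAAA, a common form of the TATA box.
Acta1: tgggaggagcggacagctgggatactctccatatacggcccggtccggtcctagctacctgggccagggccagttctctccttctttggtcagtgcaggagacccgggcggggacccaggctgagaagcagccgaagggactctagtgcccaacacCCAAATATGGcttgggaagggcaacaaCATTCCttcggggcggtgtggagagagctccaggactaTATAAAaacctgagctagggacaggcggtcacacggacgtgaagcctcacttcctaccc
Actc1: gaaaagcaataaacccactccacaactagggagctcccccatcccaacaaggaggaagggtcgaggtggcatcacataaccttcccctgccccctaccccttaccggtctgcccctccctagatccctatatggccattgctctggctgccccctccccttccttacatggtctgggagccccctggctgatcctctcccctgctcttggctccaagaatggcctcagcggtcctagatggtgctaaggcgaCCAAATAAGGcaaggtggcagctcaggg
Counted from the annotated start, the CArG box of Acta1 spanned bases -94 to -85, CATTCC -67 to -62 and TATAAA -29 to -24. In Actc1 the CArG box lay at bases 3 to 12 after the annotated start, and neither of the other motifs was present in this window. The annotated starts were not checked against measured starts, and bases outside the windows were not searched. The positions and absences therefore hold for these windows only. Both strands were searched, and the motifs in the Acta1 window did not overlap. A CArG box was present in 1.59% of 33469 RefSeq windows of this length, CATTCC in 13.5% and TATAAA in 13.7%, and all 3 were present in 16 windows (0.0478%). Among the 9 genes the CArG box was found in Acta1 and Actc1, CATTCC in Acta1, Myh6 and Tnnt2, and TATAAA in Acta1 and Mb. These are matches of letters and do not show that a factor was bound.

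Library depth ranged from 25820299 to 35509074 estimated counts per rat, with SHR replicate 2 the shallowest, and 17360 of the 18314 records (94.8%) could be given a gene symbol. The tissue label was checked against marker genes. The summed level of 10 sympathetic neuron records was 37881 to 43647 TPM in Wistar and 38083 to 44706 TPM in SHR, and that of 13 Schwann cell and satellite glia records 2411 to 2902 and 2168 to 2785 TPM. The sums of the other lists were far lower, and that of the wider striated muscle list is given below with its genes. As the lists differ in length and in the abundance of their markers, these sums do not measure the share of a cell type. The smooth muscle list summed to between 61.8 and 133.8 TPM in Wistar and between 27.2 and 137.2 TPM in SHR, the adipocyte list to between 23.9 and 126.6 and between 18.2 and 253.4 TPM, the T cell list to between 15.1 and 20.3 and between 7.57 and 21.4 TPM, and the blood cell list to between 13.5 and 32.2 and between 6.86 and 29.7 TPM. No record of these 6 lists passed the adjusted threshold between the strains in edgeR's quasi-likelihood test, beside 2.85% of all records tested. The smooth muscle, adipocyte and sympathetic neuron lists had 8, 9 and 10 records tested. The glia, T cell and blood cell lists had 13, 7 and 2. Over these lists 6 records had an unadjusted p under 0.05, beside 16.8% of all records tested. DESeq2 with a length offset called 3, Cidec and 2 records of Mbp, all lower in SHR. Over all records it called 852, beside 17709 with an unadjusted p.

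The levels are given in TPM, which is corrected for transcript length and can be compared between genes. Acta1 measured 49.0, 51.1, 39.4 and 47.0 TPM in Wistar replicates 1 to 4 and 51.2, 47.4, 55.4 and 54.3 TPM in SHR replicates 1 to 4. Its median of 50.1 TPM was above that of 87.2% of all records. Acta1 alone made up between 79.4% and 88.6% of the summed TPM of the 9 genes in each rat, so a sum over these genes is mainly a measure of Acta1. The sum was 49.6 to 68.1 TPM with Acta1 and 6.13 to 12.8 TPM without it.

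Tnnt2, the troponin subunit that anchors the complex to tropomyosin in the heart, had the second highest level. It measured 5.99, 7.56, 7.08 and 5.96 TPM in Wistar and 7.85, 3.66, 6.56 and 3.90 TPM in SHR, with a median above that of 62.4% of records. Ckm, the muscle creatine kinase that buffers ATP, measured 1.80, 1.48, 1.12 and 1.36 TPM in Wistar and 1.72, 1.65, 1.83 and 2.62 TPM in SHR. The ranking of Acta1 over Tnnt2 and of Tnnt2 over Ckm held in 8 of 8 rats, and the ranges of neighbouring genes did not overlap.

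Below Ckm the order was not resolved by the spread between rats. Myh6, the fast alpha myosin heavy chain of the heart, measured 0.572, 0.394, 0.579 and 0.551 TPM in Wistar and 0.351, 0.252, 2.47 and 0.829 TPM in SHR. Pln, the inhibitor of the cardiac calcium pump, measured 0.655, 0.512, 0.986 and 0.554 TPM in Wistar and 0.326, 0.240, 0.609 and 0.544 TPM in SHR. Myh6 exceeded Pln in 4 of 8 rats, and Ckm exceeded Myh6 in 7 of 8, with overlapping ranges in both pairs.

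The 4 remaining genes are among the most typical of striated muscle, and all were detected with few reads. Tnni3, the inhibitory troponin subunit of the adult heart, had a median of 0.236 TPM and 32 estimated counts over all 8 libraries, and was at 0 in SHR replicate 1. Actc1, the main actin of the heart, had a median of 0.139 TPM and 51 counts in all. Myh7, the slow beta myosin heavy chain, had a median of 0.0991 TPM and 161 counts. Mb, the oxygen store myoglobin, had a median of 0.0249 TPM and 22 counts, and was at 0 in 4 of 8 rats. The medians of these genes lay above those of only 12.5% to 25.4% of all records. The filter on low counts left Tnni3, Actc1 and Mb untested. The 9 genes had been grouped as possible RNA of tissue left on the ganglion. Their medians ran from 50.1 TPM for Acta1 to 0.0249 TPM for Mb, their source was not tested, and they are called by their names here.

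**Figure D1:**
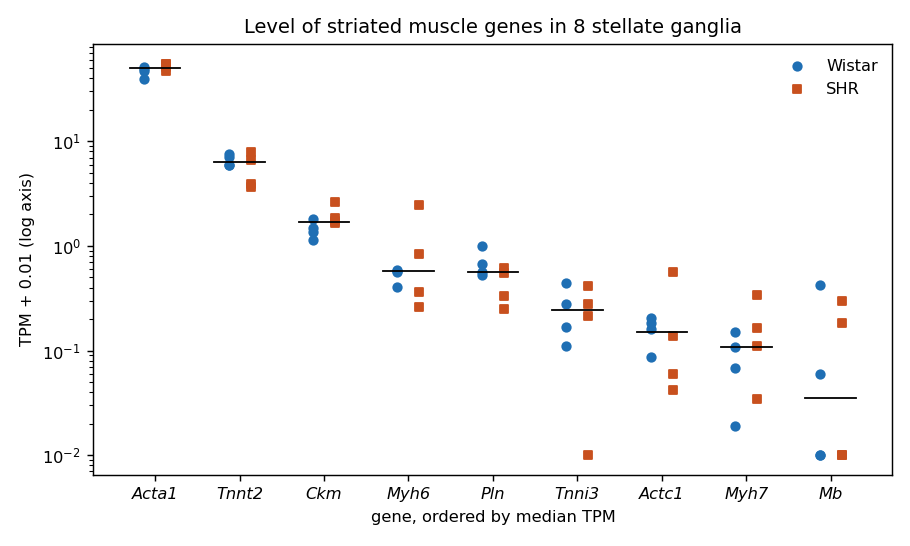
Level of the 9 striated muscle genes, as TPM + 0.01 on a log axis, in 4 Wistar rats (circles) and 4 SHR (squares), with the median of all 8 rats as a bar. Acta1 sits at 39.4 to 55.4 TPM in every rat, Tnnt2 and Ckm lie below it without overlap, and the other genes overlap with their neighbours; points at 0.01 are rats with no reads.

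Some of these values depend on how Salmon divided reads between similar transcripts. The estimated counts of Myh6 and Myh7 were not whole numbers, but their sum lay within 0.0004 of a whole number in all 8 rats, as when reads are divided between these records alone. The split between both genes is therefore uncertain, whereas their sum is not affected by it. The sums were 112, 73, 125 and 129 estimated counts in Wistar and 92, 40, 479 and 175 in SHR. The Acta1 count was not whole in any rat, and adding Actc1 did not make it so. The cytoplasmic actins Actb and Actg1 had 159357 to 259167 and 212710 to 268921 estimated counts per rat, which the files give to 6 significant digits, so a fraction shared with them would not be visible. The Acta1 count amounted to between 0.319% and 0.554% of the counts of Actb and Actg1 together. Its estimate is therefore uncertain as well, and whether reads of the cytoplasmic actins contributed to it was not tested.

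The comparison of the strains used normalised counts, which are estimated counts scaled for library size and composition and can be compared between rats but not between genes. Acta1 measured 2050.2, 1977.5, 1522.2 and 1886.5 normalised counts in Wistar and 2139.4, 2012.4, 2011.5 and 2176.5 in SHR. The means were 1859 ± 234 and 2085 ± 85.6 (SD, n = 4), and 2 of 4 SHR lay above every Wistar rat. The difference was 0.17 on the log2 scale (SE 0.11, 95% interval -0.07 to 0.40) with an adjusted p of 0.461 in edgeR's quasi-likelihood test (Benjamini-Hochberg over 13659 records). As these are bulk samples, fewer cells of a type and less RNA per cell cannot be told apart here or in the results that follow.

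Ckm measured 70.1, 53.2, 40.7 and 51.3 normalised counts in Wistar and 66.8, 64.9, 62.1 and 96.8 in SHR. SHR replicate 4 was the highest rat and Wistar replicate 3 the lowest, but the strains overlapped because Wistar replicate 1 was above 3 of 4 SHR. The log2 difference was 0.43 (SE 0.26, 95% interval -0.15 to 1.02), with an adjusted p of 0.438 in edgeR's test. Mb, the other gene of this energetic group, was not tested because of its low counts. It measured 9.61, 1.06, 0 and 0 normalised counts in Wistar and 4.05, 0, 0 and 6.58 in SHR, with means of 2.67 ± 4.65 and 2.66 ± 3.24 (SD, n = 4).

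Wistar replicate 1, the rat with the highest Mb value, also stood apart in genes of brown fat. Ucp1, the uncoupling protein of brown adipocytes, measured 894 normalised counts in this rat and 12.2 to 112 in the other 7. Cox8b, a cytochrome oxidase subunit of heart, skeletal muscle and brown fat, measured 141 in this rat and 4.26 to 10.4 in the others. The adipocyte list as a whole was highest in SHR replicate 1, with 253.4 TPM against 126.6 TPM in Wistar replicate 1. The part of these genes in the Mb values was not tested.

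Tnnt2 measured 167, 193, 180 and 158 normalised counts in Wistar and 217, 104, 157 and 105 in SHR. The Wistar rats lay close together at 175 ± 15.3 (SD, n = 4), whereas SHR ranged from the highest value of all rats to the lowest, at 146 ± 53.4 (SD, n = 4). The log2 difference was -0.26 (SE 0.25, 95% interval -0.81 to 0.30), with an adjusted p of 0.636 in edgeR's test. It was -0.51 without SHR replicate 1 and -0.12 without SHR replicate 2 or 4. Tnni3 measured 1.92, 7.45, 4.62 and 2.85 normalised counts in Wistar and 0, 5.19, 6.59 and 3.76 in SHR and was not tested.

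The direction of the Myh6 difference depended on 1 rat. It measured 106, 68.2, 98.9 and 97.8 normalised counts in Wistar and 64.8, 46.7, 399 and 147 in SHR. SHR replicate 3 held 38.8% of the normalised counts of all 8 rats, 2.72 times those of the next rat, while SHR replicates 1 and 2 were below every Wistar rat. The log2 difference was 0.83 (SE 0.57, 95% interval -0.45 to 2.11), with an adjusted p of 0.491 in edgeR's test, and without SHR replicate 3 it was -0.10 with an adjusted p of 0.929.

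Myh7 and Actc1 were highest in the same rat as Myh6. Myh7 measured 1.92, 9.58, 16.6 and 24.7 normalised counts in Wistar and 28.3, 5.19, 51.7 and 17.9 in SHR, for a log2 difference of 0.97 (SE 0.75, 95% interval -0.70 to 2.64) and an adjusted p of 0.540 in edgeR's test. Without SHR replicate 3 the Myh7 difference was 0.38, without Wistar replicate 1 it was 0.60 and without Wistar replicate 4 it was 1.46. Actc1 measured 7.69, 6.39, 2.77 and 5.70 normalised counts in Wistar and 5.06, 1.30, 18.8 and 1.88 in SHR, and was not tested. SHR replicate 3 held 33.2% of the Myh7 counts and 37.9% of the Actc1 counts. Not all cardiac genes were highest in this rat, since Tnnt2, Tnni3 and Pln had their highest values in SHR replicate 1, Wistar replicate 2 and Wistar replicate 3. SHR replicate 3 also had the lowest sums of the smooth muscle, adipocyte, T cell and blood cell lists, at 27.2, 18.2, 7.57 and 6.86 TPM. SHR replicate 4 was next lowest for the smooth muscle, T cell and blood cell lists, at 34.9, 9.08 and 10.5 TPM. Its Myh6, Myh7 and Actc1 were 147, 17.9 and 1.88 normalised counts. The part of the low sums in the myosin and actin values was not tested. With Myh6 and Myh7 summed before the fit, the log2 difference was 0.85 and the adjusted p was 0.464.

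Pln measured 31.7, 22.4, 42.5 and 24.7 normalised counts in Wistar and 15.2, 11.7, 24.5 and 25.4 in SHR. SHR replicates 1 and 2 were below every Wistar rat and the other two SHR were within the Wistar range. Its log2 difference of -0.65 (SE 0.39, 95% interval -1.51 to 0.22) had an adjusted p of 0.430 in edgeR's test, the smallest adjusted p of the 6 genes tested.

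**Figure D2:**
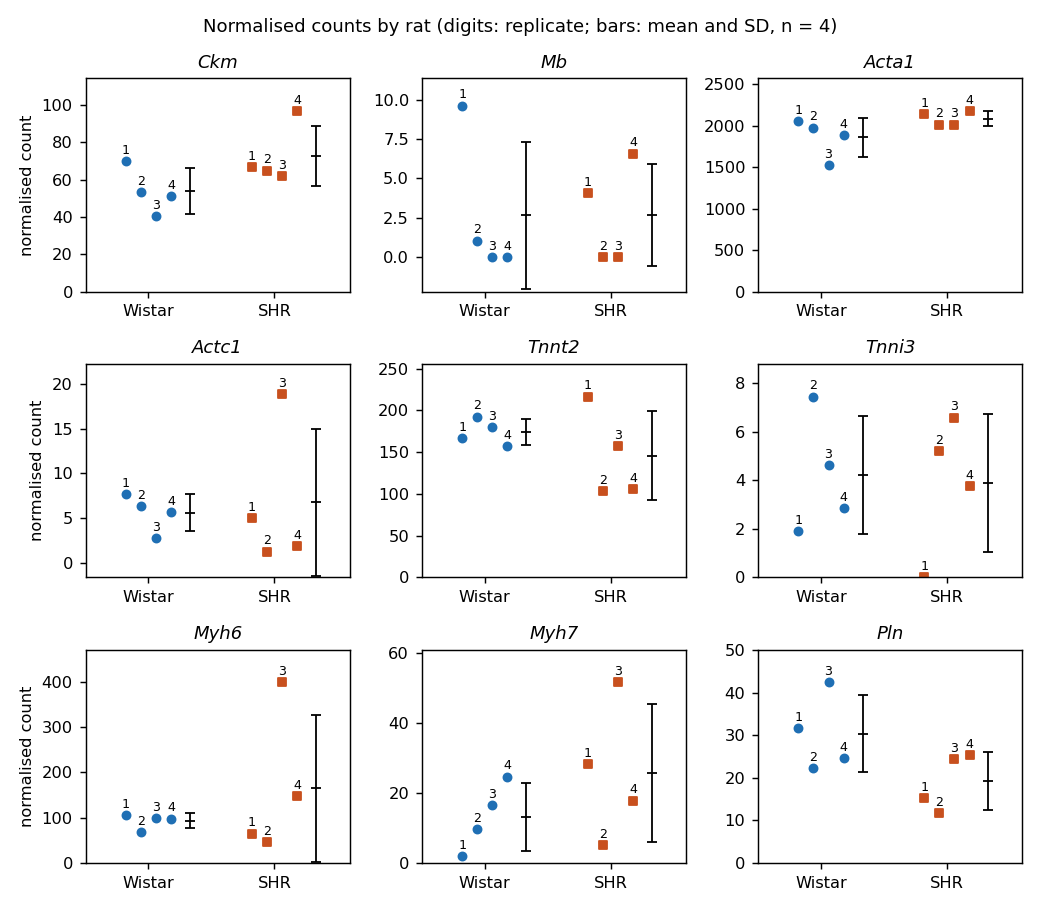
Normalised counts of the 9 genes in each rat, with one panel and one linear axis per gene; circles are Wistar, squares are SHR, digits give the replicate, and bars give the mean and SD of 4 rats. The strains overlap in every panel, and SHR replicate 3 stands above all other rats for Actc1, Myh6 and Myh7 but not for the other 6 genes.

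By edgeR's quasi-likelihood test and Benjamini-Hochberg adjustment, 0 of the 6 tested genes passed the adjusted p threshold of 0.05, and 0 had an unadjusted p under 0.05. Over all 13659 records tested, 389 (2.85%) passed it, of which 158 (1.16%) were higher and 231 (1.69%) lower in SHR, and 2301 had an unadjusted p under 0.05. DESeq2 called 0 of the 6 genes that it gave an adjusted p with a length offset, and 0 of 8 without it. Of the 6 genes, 0 had strains that did not overlap, against 1446 of all records tested (10.6%). The median log2 difference of the 6 genes was 0.30 and their median absolute difference 0.54, beside 0.01 and 0.21 over all records tested. Low counts widen such differences, and no comparison with records of like count was made. With 6 genes the shares are coarse, and a p that missed the threshold does not show that the strains were alike. The intervals for Myh6 and Myh7 reached 2.11 and 2.64 on the log2 scale.

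The same genes were next compared over rats, to see whether the same animals were high for each of them. Over the 36 pairs of genes, Pearson's r of log2(normalised count + 1) ranged from -0.60 to 0.86 with a median of 0.04, and was positive in 20 pairs and negative in 16. The strains were pooled, since 4 rats are too few for a correlation within a strain. Mb, Tnni3 and Actc1 had 22, 32 and 51 estimated counts in all, and counting noise draws r toward 0 in pairs that include them. A low r in such a pair does not show that different rats were high. Exact permutation tests (two-sided) of Pearson's r gave 2 pairs with an unadjusted p under 0.05, and 0 pairs after Benjamini-Hochberg adjustment over the 36. For Spearman's rho 2 pairs had an unadjusted p under 0.05, and 1 pair, Ckm and Acta1, passed after adjustment.

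Ckm and Acta1 varied together most closely. Pearson's r was 0.86 (n = 8, exact permutation p = 0.00474, adjusted p = 0.171) and Spearman's rho was 0.98 (exact permutation p = 0.000397, adjusted p = 0.0143). SHR replicate 4 was highest and Wistar replicate 3 lowest for both genes, and without these 2 rats r was 0.83. Ckm and Mb gave r = 0.70 (n = 8, exact permutation p = 0.0464, adjusted p = 0.711) and rho = 0.79 (exact permutation p = 0.0310, adjusted p = 0.557), and r was 0.59 without the same rats. The relation rests partly on Mb counts at or near 0.

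Among the cardiac genes no pair passed the adjusted threshold. Actc1 and Myh6 gave r = 0.66 (n = 8, exact permutation p = 0.0793, adjusted p = 0.711), but without SHR replicates 2 and 3 r was -0.59, so that this relation rested on those rats. Ckm and Tnnt2 gave r = -0.54 (n = 8, exact permutation p = 0.178, adjusted p = 0.711) and Acta1 and Pln r = -0.60 (n = 8, exact permutation p = 0.136, adjusted p = 0.711). The coefficient of variation over the 8 rats was 10.3% for Acta1, 24.7% for Tnnt2, 26.3% for Ckm and 38.4% for Pln, and reached 60.6% for Tnni3, 81.5% for Myh7, 88.4% for Myh6, 89.9% for Actc1 and 139.4% for Mb. Tnni3, Actc1 and Mb had 32, 51 and 22 estimated counts in all, so counting noise adds to their coefficients.

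**Figure D3:**
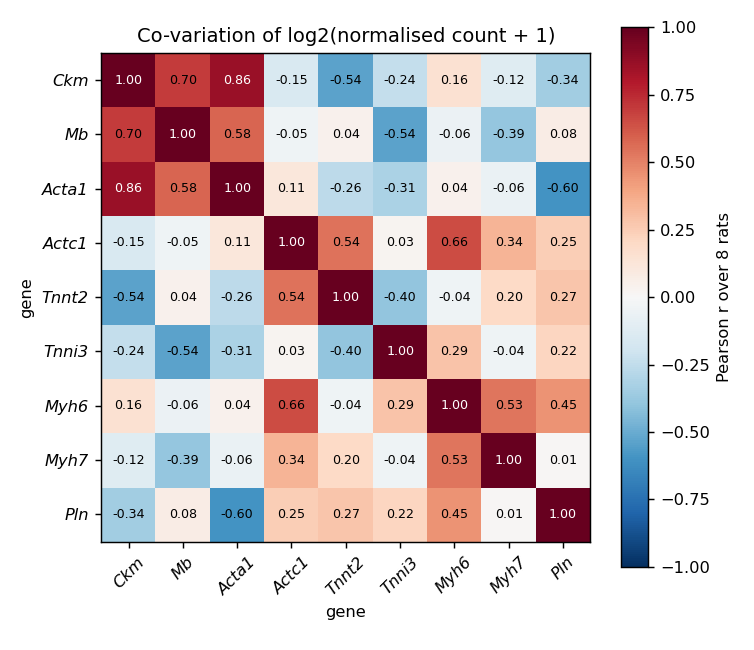
Pearson's r between each pair of the 9 genes over 8 rats, computed on log2(normalised count + 1), with red for positive and blue for negative values. Ckm and Acta1 share the highest value, 0.86, and the remaining pairs scatter on both sides of 0 with a median over all 36 pairs of 0.04. Pairs with Mb, Tnni3 or Actc1, which had few counts, are blurred by counting noise.

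For each gene tested, the 3 records with the most similar pattern over the 8 rats were listed from 13653 other records. They were Pm20d2 (r = 0.98), Ppp3cc (0.97) and Tcf3 (0.96) for Ckm, and Rpl37a (0.98), Zap70 (0.96) and Gsta6 (0.95) for Acta1. Tnnt2 was closest to Nepro (0.96), Rbpj (0.95) and Wdfy2 (0.94). Myh6 was closest to Bicral (0.96), Ssx2ip (0.96) and Map3k1 (0.95), and Myh7 to Tns3 (0.98), Cntnap1 (0.96) and Dusp5 (0.96). Pln was closest to Samhd1 (0.96) and to the records NM_001127599 (0.95) and NM_001047899 (0.95), which had no symbol. None of these records belonged to the striated muscle list. As only 29 of the 13653 records were on that list, this absence is little evidence either way. With only 8 rats such values of r are the extremes among 13653 records.

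The 9 genes were then set beside a wider list of 63 striated muscle genes, which held the 9 and 54 others. Of the 54, 49 had a record, and 35 of these 49 had a median level below 1 TPM. The exceptions with at least 10 TPM were Fabp3, a fatty acid binding protein, Tnnc1, the calcium-binding troponin subunit of heart and slow muscle, and Atp2a2, the calcium pump of heart and slow muscle. Fabp3 and Atp2a2 are also expressed outside muscle. Tnnc1 measured 20.4 to 29.3 TPM and Fabp3 60.0 to 116.3 TPM over the 8 rats. Atp2a2 summed to 13.4 to 24.4 TPM over its records. Salmon assigned 12.5 to 23.5 TPM of this to the noncoding record NR_027839 and 0.524 to 0.920 TPM to the coding record NM_001110139. NM_001110823 was at 0 in every rat. The estimated counts of NR_027839 and NM_001110139 were not all whole numbers. The division of reads between them is therefore an estimate, and the noncoding share of Atp2a2 is uncertain. Most of the other genes of contractile fibres had low levels, of which examples at both ends follow. The fast skeletal myosins Myh1, Myh2 and Myh4 had medians of 0.268, 0.272 and 0.162 TPM, the myosin light chains Myl2 and Myl3 0.371 and 0.357 TPM, the titin cap Tcap 0.0701 TPM, and Sln, the sarcolipin of atrium and skeletal muscle, was at 0 in every rat. The calsequestrin Casq2, a calcium store protein of heart and slow muscle, had a median of 7.29 TPM, the muscle enzymes Pgam2 and Eno3 4.42 and 3.94 TPM, the fast calcium pump Atp2a1 3.14 TPM and the actinin Actn2 2.81 TPM.

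**Figure D4:**
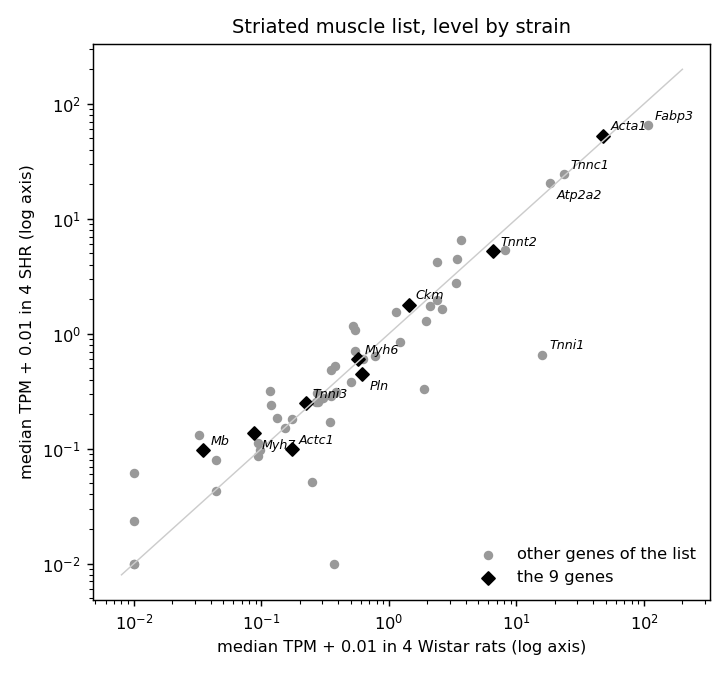
Median TPM + 0.01 of each gene of the striated muscle list in 4 Wistar rats (horizontal) and 4 SHR (vertical), both on log axes, with the line of equal level; diamonds are the 9 genes and circles the other genes. Most genes lie below 1 TPM and near the line, whereas Tnni1 lies far below it with 16.0 TPM in Wistar and 0.645 TPM in SHR. Myl1, at 1.88 and 0.322 TPM, and Nppa, at 0.364 and 0 TPM, also lie well below it. Tcap lies above it at 0.0224 and 0.123 TPM.

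Of the 69 records of the other genes, 29 passed the filter on low counts. In edgeR's test 3 of the 29 were lower in SHR and 0 were higher, beside 1.69% lower and 1.16% higher over all records tested. An unadjusted p under 0.05 was reached by 8 of the 29, beside 16.8% of all records tested, and the median log2 difference was -0.02. DESeq2 with a length offset called 4 records of the list, which were Tnni1, Fabp3, Ryr2 NM_032078 and Pgam2. Over all records it called 852, beside 17709 with an unadjusted p. The number given an adjusted p, for the list or for all records, was not counted. Tnni1, the inhibitory troponin subunit of slow skeletal muscle and the fetal heart, measured 222, 376, 482 and 184 normalised counts in Wistar and 21.3, 11.7, 10.3 and 13.2 in SHR. The strains were far apart, with means of 316 ± 138 and 14.1 ± 4.90 (SD, n = 4) and a log2 difference of -4.47 (SE 0.39, edgeR's quasi-likelihood test, adjusted p = 0.000228). In TPM the Wistar rats had 11.2, 20.8, 26.4 and 9.69 and the SHR had 1.08, 0.580, 0.603 and 0.689. Its fast counterpart Tnni2 and its cardiac counterpart Tnni3 had medians of 0.262 and 0.236 TPM, so Tnni1 was the troponin I record with the highest level in Wistar.

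Fabp3 measured 1617, 1194, 1331 and 1415 normalised counts in Wistar and 819, 1082, 722 and 937 in SHR, and the strains did not overlap. Its log2 difference was -0.64 (SE 0.15, edgeR's adjusted p = 0.0472). This call was narrow, since with RLE scaling the adjusted p was 0.0540 and it exceeded 0.05 when any one rat other than SHR replicate 2 was left out, with a range of 0.00279 to 0.199 over all alternatives.

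Ryr2, the calcium release channel of the heart, had 2 records that differed in direction. NM_032078 measured 67.3, 89.5, 67.5 and 61.7 normalised counts in Wistar and 9.11, 7.79, 12.2 and 25.4 in SHR, for a log2 difference of -2.36 (SE 0.40, edgeR's adjusted p = 0.0113). NM_001191043, the more abundant record, measured 415, 466, 341 and 474 in Wistar and 332, 545, 852 and 845 in SHR, for a log2 difference of 0.60 (SE 0.27, edgeR's adjusted p = 0.299). Summed over both records the log2 difference was 0.41 (SE 0.26, edgeR's adjusted p = 0.441). The lower value in SHR therefore concerned 1 record, and the division of reads between both is an estimate.

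Pgam2, the muscle form of the glycolytic enzyme phosphoglycerate mutase, differed in the other direction. It measured 73.0, 66.0, 62.9 and 60.8 normalised counts in Wistar and 96.2, 147.9, 122.3 and 107.1 in SHR, and the strains did not overlap. The log2 difference was 0.85 (SE 0.21, 95% interval 0.38 to 1.31) with an adjusted p of 0.0664 in edgeR's test, which missed the threshold, and the adjusted p ranged from 0.0187 to 0.291 over all alternatives. Other records of the list whose 95% interval left out 0 also missed it. Myl1 (log2 difference -2.93, SE 0.99), Myh2 (-1.38, SE 0.48) and Pygm (-0.70, SE 0.27) were lower in SHR, and Actn2 (0.79, SE 0.31) was higher. Their adjusted p in edgeR's test was 0.174 to 0.235.

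**Figure D5:**
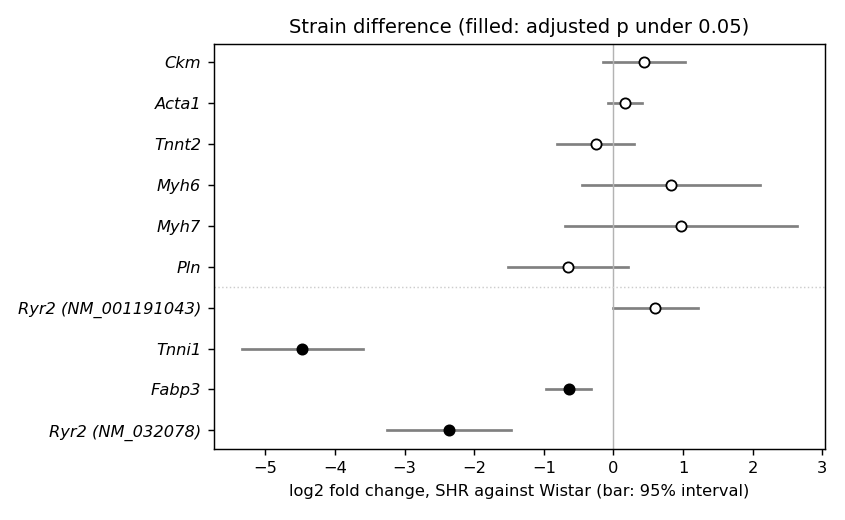
Log2 difference of SHR against Wistar with its 95% interval for the 6 tested genes (above the dotted line) and for Tnni1, Fabp3 and both Ryr2 records (below it); filled points have an adjusted p under 0.05 in edgeR's test. All 6 intervals above the line include 0, and Tnni1 lies at -4.47.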

How the data were processed

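RNA of the right stellate ganglion of 4 Wistar rats and 4 SHR was sequenced as 1 library per rat. According to the submitters' processing notes and the study's methods, the authors checked reads with FastQC 0.11.7 and quantified them with Salmon 0.8.2 against RefSeq transcripts (rn6), with GC and positional bias correction. The labels and the methods name different kits for extraction and library preparation. The deposited values are an estimated count and a TPM per record, and the authors' files also give each record's length and effective length. Estimated counts were rounded to whole numbers. Symbols came from a RefSeq table (GRCr8).

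The members and lists were chosen with earlier results of these data known. The text names all 9 members, the 3 records most like each tested member, and genes of the marker lists. Genes singled out from those lists, Pgam2 included, and Ucp1 and Cox8b beside Mb, were chosen after their values were seen.

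The test was edgeR 4.0.16 (glmQLFit and glmQLFTest with default settings, TMM, filterByExpr) in R 4.3.3, two-sided, with strain as the only term and a threshold of 0.05 after Benjamini-Hochberg adjustment. Normalised counts are TMM-scaled shares of the library multiplied by the mean effective library size. Correlations used log2(normalised count + 1) and exact permutation over the 8 rats. Alternatives were DESeq2 1.42.0 (a length offset present or absent), RLE factors, other filters, a replicate block, summed records, TPM, a pseudocount of 0.1, deviations from strain means and leaving out each rat. Their use on the striated muscle list was decided once the data had been seen. The fits and correlations were tested on simulated data.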

Additional observations from a re-analysis of the deposited data

Results flagged for a closer look

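Dixon's criterion, which chance meets in about 1 of 20 groups, was applied to the 4 rats of each strain. Among the 9 members it was met in 2 of 18 groups, where that rate gives 0.9. The rate assumes normally distributed values and independent groups. These were untransformed counts, some near 0, from the same rats, so 0.9 is only a rough guide. Ckm was 96.8 normalised counts in SHR replicate 4, against 62.1 to 66.8 in the other SHR. Mb was 9.61 normalised counts in Wistar replicate 1, against 0 to 1.06 in the other Wistar rats, which is a difference of a few reads. It was also met in 3 of 14 groups of Tnni1, Fabp3, Pgam2, Cox8b, Ucp1 and both Ryr2 records, which were chosen after their values were seen, so that no chance count applies to them. Cox8b was 141 normalised counts in Wistar replicate 1, against 4.26 to 10.4 in the other Wistar rats. Ucp1 was 894 normalised counts in Wistar replicate 1, against 22.4 to 112 in the other Wistar rats, and 12.2 in SHR replicate 3, against 44.5 to 48.0 in the other SHR. The cause was not tested.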

How the results depend on the processing

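The number of the 9 members that passed the threshold was 0 under all 17 alternatives of the fit. The number of records called was 389. It was 852 (377 higher and 475 lower in SHR) with DESeq2 and a length offset and 782 (353 and 429) without it, and ranged from 237 to 454 when 1 rat was left out, being 237, 243 and 238 without Wistar replicates 2, 3 and 4 and 248 without SHR replicate 4. The median r over the 36 pairs was 0.04. It was 0.20 on log2(TPM + 1), -0.11 without SHR replicate 2 and -0.003 without SHR replicate 3, with a range of -0.11 to 0.10 when 1 rat was left out. Leaving out 1 rat gave 2 to 3 called records of the wider list, and summing records to genes gave 2 called genes. The log2 difference of Myh6 ranged from -0.10 to 1.14 when 1 rat was left out, and the negative value was that without SHR replicate 3. Other members moved by over 1.5 times when 1 rat was left out, with Ckm at 0.28 without SHR replicate 4, and Acta1 at 0.09 and Pln at -0.43 without Wistar replicate 3. Pgam2 passed the threshold under 3 alternatives, DESeq2 with and without the offset and a minimum of 10 counts in every sample. The replicate numbers did not pair the rats, since the deviations of same-numbered rats correlated at -0.29 to -0.04 and 0 of 8 rats correlated best with their own number. With the replicate number as a block 132 records were called (44 higher, 88 lower), and 1 record of the wider list, Tnni1, with Ryr2 NM_032078 at an adjusted p of 0.0830 and Fabp3 at 0.199. Tnni1 was called in all 16 alternatives that gave it a value, with log2 differences of -4.74 to -4.18. The causes of these shifts were not tested. Depth limits Mb, Tnni3 and Actc1, which had 22 to 51 estimated counts over all rats.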
